A study of Mus musculus with 15 samples.

Results

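Small RNA loci of the adult mouse testis that were higher after immunoprecipitation with an antibody against pseudouridine and lower after treatment with CMC are described here. A locus is 1 genomic interval on 1 strand under 1 repeat label, so an interval with several labels is listed once for each, and its count is the number of reads listed there. Levels are in CPM, the count per 1000000 counts of the library. A locus became a member when it had at least 60 counts over the 6 input and immunoprecipitated (Ψ-IP) libraries, at least 60 over the 6 mock and CMC libraries, a mean CPM in Ψ-IP of at least 1.5 times that in input, and a mean CPM with CMC of at most 0.67 times that in mock. The members were thus chosen by the measured Ψ-IP, input, CMC and mock values. Of 8128951 loci with a read in any library, 107997 had the counts to be judged, and 3302 of these (3.06%) were members.

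All 15 libraries came from testis of C57Bl/6 males aged 8 weeks, with no genetic alteration named in the labels, in 5 groups of 3. Small RNA was either mock treated or treated with CMC, or was taken as the input, the antibody-bound fraction and the flow-through of the Ψ-IP. The labels give 2 library kits, 1 for the CMC and mock libraries and the other for the Ψ-IP fractions, so groups were compared only within each set. Where members are ranked by abundance, however, the mean CPM was taken over all 15 libraries, and levels could differ widely between the sets (293 CPM in mock and 6.43 in input at a locus on chr17 described below). Totals ranged from 24154811 counts (CMC) to 58399368 (mock) in the first set and from 11575705 (Ψ-IP) to 25063656 (input) in the second. The labels do not say whether replicates came from separate animals, so p-values measure only the spread between these libraries.

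Pseudouridine (Ψ) is an isomer of uridine that pseudouridine synthases make in place within an RNA chain. The antibody retains RNA that carries Ψ, and the flow-through is what it leaves behind. CMC forms a bulky adduct on Ψ that stops reverse transcriptase, so that a small RNA with an adduct is lost from the library. piRNAs are the small RNAs of the germline bound by PIWI proteins, which silence transposons; in adult mouse testis most come from long single-stranded precursors transcribed from genomic clusters, and most begin with U.

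Sequences could be read for 457 members (13.8%) that lie within an annotated exon (450) or in a window around a gene start. They are shown first because members differed from the other loci in base composition. Each is written 5′ to 3′ on the strand of the small RNA, in the letters of the mm10 reference (GENCODE transcripts), with every T, which is U in the RNA, in capitals. The members below are among the most abundant with a sequence of at most 30 nt outside coding genes' UTRs. All lie in exons of long noncoding RNA genes except the last, which is in a gene model of unsettled type, and are on the gene's own strand except where stated.

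Gm30132, chr8:93419670-93419699, minus strand: TcTTTccgTgTgTgcTgTgacaTTTTgTcc
4930444F02Rik, chr10:18800701-18800730, minus strand: TTggTcTTcTggTTgTgaTagTTTTTcTcc
4930444F02Rik, chr10:18800665-18800694, minus strand: TacTTccacgaTTTaaaaagTaTTTTaTTT
1700029M20Rik, chr4:135628224-135628252, plus strand: TTcaagagTTTgTgggTTgTTTTcTggga
Gm21269, chr7:73819085-73819114, plus strand: TcTggTacTgTTaagcTTTaaTTTcTTTcc
4933440M02Rik, chr7:125329852-125329881, minus strand: TaTcaTTaTgccTTTTcTTcccTacagaTT
Gm21388, chr3:34867947-34867975, plus strand: TgTgaTTTTTgTgTgTaTgagaTTTgaaT
Gm43353, antisense, in an MTEa repeat, chr5:113325033-113325062, minus strand: TTgTTTTTTTaTTTgTTcTggggcgTTagc

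For comparison, these are the most abundant loci of 26 to 30 nt in exons of 4 of these genes that met neither threshold.

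Gm30132, chr8:93416396-93416425, minus strand: TcTTaTgcaTgccggTcacTgaTTagaTgg
4930444F02Rik, chr10:18797699-18797728, minus strand: TaaacacccagcaggaaagTaTaaccaaaa
Gm21269, chr7:73824992-73825021, plus strand: TaTgTgaaTTTcaacTgTTggcTccacagg
1700029M20Rik, chr4:135629936-135629965, plus strand: TgTaTcTTgaTTgTggTgaTgaTTaTaTgg

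The member of Gm30132 has 14 T in 30 nt, the first of the 4930444F02Rik members 16 and the Gm43353 member 17. Not every member of like abundance is printed, and 1 left out, in Gm5878, has 12 T in 30 nt. The loci that met neither threshold have 10 in Gm30132, 3 in 4930444F02Rik and 10 in Gm21269. The exception is 1700029M20Rik, where the locus that met neither threshold has 14 T and its member has 13. That locus was lower in Ψ-IP (ratio to input 0.408) and had a CMC to mock ratio of 0.732.

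The rule's own 2 measures are given as a description. The ratio of mean CPM in Ψ-IP to input had a median of 2.34 over members (quartiles 1.89 and 2.99, highest 11.3), and that of CMC to mock a median of 0.598 (quartiles 0.536 and 0.638, lowest 0.172). All 3 Ψ-IP libraries lay above all 3 input libraries at 2672 members (80.9%; 29.9% of the 107997 loci), all 3 CMC libraries below all 3 mock libraries at 2645 (80.1%; 12.1%), and both held at 2151 (65.1%; 5.37%). By edgeR's quasi-likelihood test over all loci with more than 20 counts (adjusted p under 0.01), 1555 members were called higher in Ψ-IP than input (47.1%; 15.0% of the 107997 loci and 5.45% of all 686863 tested), 1287 lower with CMC (39.0%; 2.35%, and 0.654% of all 556583 tested), and 659 (20%; 0.794% of the 107997 loci) both. Nothing is read from these counts, since the rule chose on the same contrasts.

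Most loci that were up in Ψ-IP were not down with CMC, and the thresholds cut through a continuous cloud. Of the 107997 loci, 37476 (34.7%) met the Ψ-IP threshold and 5734 (5.31%) the CMC threshold. The 3302 that met both are a larger share of the 37476 than 5.31%, and a larger share of the 5734 than 34.7%. The opposite corner, down in Ψ-IP and up with CMC by the same folds, held 3815 loci (3.53%), more than the members. Both up was seen at 2067 loci and both down at 713. The member nearest the Ψ-IP threshold, on chr9 at 67695573-67695599, had 1.1 CPM ± 0.319 in input and 1.66 ± 0.734 in Ψ-IP (SD, n = 3). The nearest locus outside it, on chr12 at 98402731-98402761, had 2.68 ± 0.303 and 4.02 ± 0.664. At the CMC threshold, the nearest member, on chr2 at 151254719-151254749, had 0.729 CPM in mock and 0.488 with CMC, and the nearest locus outside, on chr4 at 94311034-94311063, had 2.53 and 1.7.

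**Figure D1:**
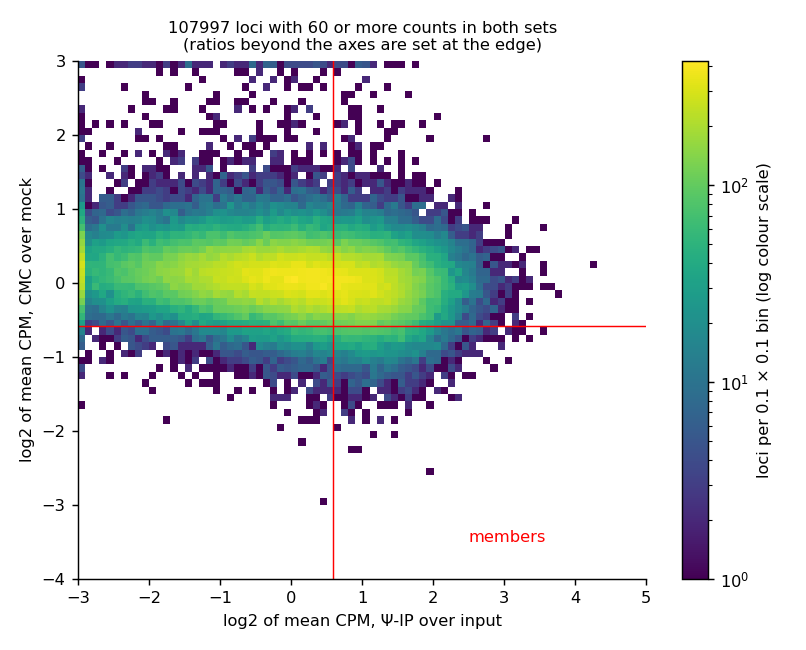
Number of loci (colour, log scale) by the log2 ratio of mean CPM of Ψ-IP to input (horizontal) and of CMC to mock (vertical), over the 107997 loci with at least 60 counts in both sets; red lines are the thresholds of 1.5 and 0.67. The 3302 members fill the lower right corner, which continues the main cloud without a gap.

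The most abundant members were piRNA-sized and lay in clusters on chromosomes 6, 7, 8, 9, 12, 14 and 17. Highest by mean over all libraries was a 29-nt locus on chr17 at 66211442-66211470, plus strand, outside genes and repeats. It had 1190, 1330 and 1170 CPM in mock and 902, 779 and 794 with CMC. In the other set it had 286, 319 and 270 CPM in input, 876, 785 and 723 in Ψ-IP, and 68.1, 113 and 111 in flow-through. The groups did not overlap in either set, and flow-through was the lowest fraction in every library.

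A 29-nt locus on chr7 at 73109418-73109446, also intergenic, showed the widest gap between bound and unbound fractions among the 12 most abundant members. Input held 185, 195 and 194 CPM, Ψ-IP 293, 475 and 328, and flow-through 8.98, 18 and 16.8. Mock libraries had 196, 187 and 162 CPM, and CMC libraries 138, 105 and 92.3. The locus was singled out for this gap, and the rule chose members on the Ψ-IP arm, so no test is given.

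The most abundant member in a repeat, a 30-nt locus in an L1M2 element on chr9 at 67696572-67696601, minus strand, gave a like picture. It had 59.3, 66.7 and 64.5 CPM in input, 161, 137 and 128 in Ψ-IP and 2.79, 7.23 and 10.3 in flow-through. Its mock values were 247, 250 and 250 CPM and its CMC values 168, 129 and 121. L1 elements are LINEs, a class of retrotransposon of which some copies still move in the mouse genome; L1M2 is an old subfamily. Flow-through was below input with a log2 fold change of -3.45 ± 0.30 (SE; edgeR adjusted p = 7.45e-09).

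The Gm30132 member printed above had 457, 543 and 549 CPM in mock and 296, 298 and 319 with CMC. Input held 26.1, 42.1 and 31.7 CPM, Ψ-IP 85.3, 101 and 82.3, and flow-through 22.0, 24.4 and 16.8. Flow-through was below input in every pairing of libraries (log2 fold change -0.86 ± 0.22, adjusted p = 0.00467). That call was lost with a stricter count filter (-0.60) and without input replicates 2 or 3 or flow-through replicates 2 or 3 (-0.67 to -0.98).

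**Figure D2:**
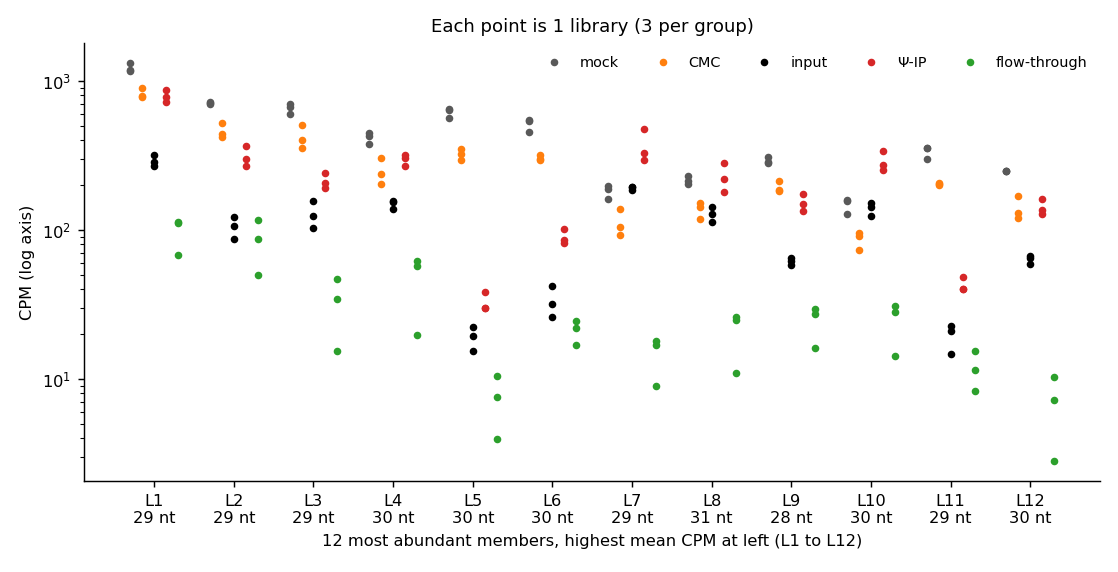
CPM (log axis) of the 12 most abundant members in each of the 15 libraries, coloured by group, 1 point per library. At L1, the chr17 locus, the 3 Ψ-IP libraries lie between 723 and 876 CPM and the 3 flow-through libraries between 68.1 and 113; flow-through overlaps input only at L2 and L11, with 49.6 to 116 CPM at L2.

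The flow-through was not used to choose the members, though both comparisons it allows share an arm with the rule. Members were low there. The ratio of flow-through to input had a median of 0.407 over members (quartiles 0.204 and 0.867), beside 0.853 over all 107997 loci. Loci that were up in Ψ-IP but not down with CMC had a median of 1.52, those down with CMC but not up in Ψ-IP 0.293, and those that met neither threshold 0.737. By edgeR, 1214 members (36.8%; 23.3% of the 107997 loci and 9.73% of all tested) were lower in flow-through than input and 127 (3.85%; 13.2%, and 6.45% of all tested) were higher. All 3 flow-through libraries lay below all 3 input libraries at 1814 members (54.9%; 35.3%) and above at 293 (8.87%; 26.4%). The median fitted log2 fold change was -1.50 over members and -0.44 over the 107997 loci.

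Among loci that met the Ψ-IP threshold alone, 12.4% were called lower in flow-through than input and 28.3% higher. Among loci that met the CMC threshold alone, 58.0% were called lower and 0.411% higher. These sets and the members use the same input and flow-through libraries. Loci are not replicates of a condition, so the differences between sets carry no test.

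Against flow-through, Ψ-IP was higher at 2509 members (76.0%; 21.3% of the 107997 loci and 9.30% of all tested) and lower at 3 (0.0909%; 8.55%, and 3.56% of all tested). The median ratio was 5.80, beside 0.977 over the 107997 loci. The rule chose members for high Ψ-IP values, the same arm as in this comparison. Loci that were up in Ψ-IP alone, chosen on the same arm, were called higher at 34.9% and lower at 4.10%, with a median ratio of 1.48. Loci down with CMC alone were called higher at 42.1%. All 1214 members called lower in flow-through than input were also called higher in Ψ-IP than in flow-through, and 593 of them (18% of members; 2.57% of the 107997 loci) were called higher in Ψ-IP than input as well. In all, 285 members (8.63%; 0.325% of the 107997 loci) passed the 3 tests of Ψ-IP over input, CMC below mock and flow-through below input, of which the first 2 are contrasts the rule used. No read was counted in any flow-through library at 49 members (1.48%), 0.235% of the 107997 loci and 1.23% of those down with CMC alone.

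Summed over the 3302 loci, members took 1.05% to 1.22% of the counts in the 3 input libraries, 2.36% to 2.90% in Ψ-IP and 0.39% to 0.60% in flow-through. In the other set they took 2.56% to 2.67% in mock and 1.43% to 1.76% with CMC. The lowest flow-through value, 0.39%, was that of flow-through replicate 1, which had the fewest loci of its group (1265161) despite the group's highest total (21494965).

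**Figure D3:**
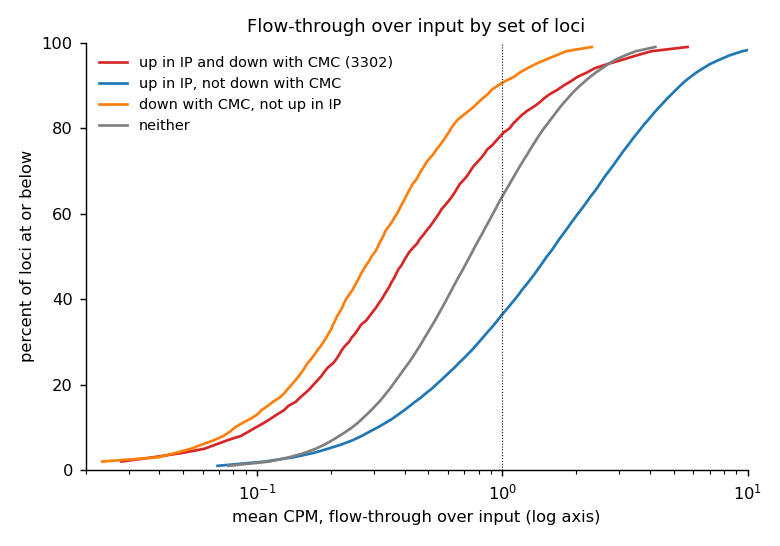
Cumulative percent of loci (vertical) by the ratio of mean CPM in flow-through to input (horizontal, log axis) for members and the 3 other sets of the 107997 loci; the dotted line is a ratio of 1. Below 1 lie 78.6% of members, 36.4% of loci that were up in Ψ-IP alone and 90.4% of loci down with CMC alone.

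The extremes show how far members differed among themselves. Among the 268 with a mean of at least 10 CPM over the Ψ-IP set, 235 had less in flow-through than input and 33 did not. Ψ-IP, which the rule chose to be high, and flow-through both help to reach that level. Over all levels, 78.6% of members and 56.4% of the 107997 loci had less in flow-through than input. The lowest ratio, 0.0117, was at an intergenic 30-nt locus on chr15 at 74640486-74640515. It held 12.2, 12.5 and 11.5 CPM in input, 14.6, 32.1 and 10.5 in Ψ-IP and 0.14, 0.216 and 0.0699 in flow-through. Its Ψ-IP libraries overlapped input, with replicate 2 highest. Next came a 30-nt locus on chr12 at 98400506-98400535, with 64.6, 49.6 and 69.5 CPM in input, 99.9, 119 and 88.0 in Ψ-IP and 1.26, 1.13 and 1.54 in flow-through; here the 3 groups did not overlap. Loci at either end were picked for this ratio, so it carries no test there.

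Low flow-through also marked the second 4930444F02Rik sequence printed above, at chr10:18800665-18800694. It had 27.0, 19.2 and 30 CPM in input, 51.1, 61.8 and 42.2 in Ψ-IP, and 0.698, 0.432 and 2.1 in flow-through. In the other set its levels were low and overlapped, with 1.35, 1.25 and 0.874 CPM in mock and 0.511, 0.331 and 0.987 with CMC, values that the member rule itself used. The 4933440M02Rik member, chosen by the same values, likewise overlapped, with 0.983, 0.651 and 0.499 CPM in mock and 0.204, 0.373 and 0.768 with CMC. In the same exon, the first sequence had a ratio of flow-through to input of 0.61. The member of 31 nt with the same 5′ end, at 18800700-18800730, had 0.931 and was not called (log2 fold change -0.30 ± 0.24, adjusted p = 0.363).

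At the other end, a 30-nt locus in an RLTR43C element (an ERVK long terminal repeat) on chr10 at 86570249-86570278 had 5.34 times as much in flow-through as in input. It held 3.71, 5.19 and 2.70 CPM in input, 17.1, 10.8 and 10.6 in Ψ-IP and 19.3, 18 and 24.7 in flow-through. Both fractions exceeded input in every library. The next 4, on chromosomes 2, 5, 6 and 7, had ratios of 2.99 to 3.31. Their mean levels in input were 4.24 to 6.63 CPM, so all 5 reached 10 CPM only through Ψ-IP and flow-through, and the minimum favours such loci.

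Members with a sequence were rich in U. T made up 47.1% of their bases, beside 30.7% over the 14700 of the 107997 loci with a sequence, and the other 3 bases were all below that reference (A 16.3% and 26.7%, C 16.0% and 19.0%, G 20.6% and 23.6%). A member had a median of 14 T and the reference locus 9. With each 5′ end counted once, mean T content was 46.0% over 337 ends, beside 30.9% over 6415. Loci that were up in Ψ-IP alone had 30.7% T, and those down with CMC alone 44%. Since only 13.8% of members have a sequence, a check over all members is void, and these values describe loci in exons and near gene starts.

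The share of loci that were members rose with T content. No locus with at most 20% T was a member (0 of 2188), and 2 of 2167 loci with 20% to 25% were. The share was 0.565% at 30% to 35%, 2.24% at 35% to 40%, 7.90% at 40% to 45%, 19.3% at 45% to 50%, 46.7% at 50% to 60% and 61.9% above 60%, where 13 of 21 loci were members. Over all loci of a bin, the median ratio of CMC to mock fell from 1.27 in the lowest bin to 0.418 in the highest, and that of flow-through to input from 1.90 to 0.158. The ratio of Ψ-IP to input was between 0.846 and 1.06 up to 35% T, reached 1.91 at 50% to 60% and was 1.66 above 60%. Within a bin, members mostly had more in flow-through relative to input than the other loci did, with medians of 0.739 and 0.529 at 35% to 40% T, 0.573 and 0.383 at 40% to 45%, 0.267 and 0.245 at 50% to 60% and 0.200 and 0.0998 above 60%. The exception was 25% to 30%, with 5 members (0.751 and 1.00).

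**Figure D4:**
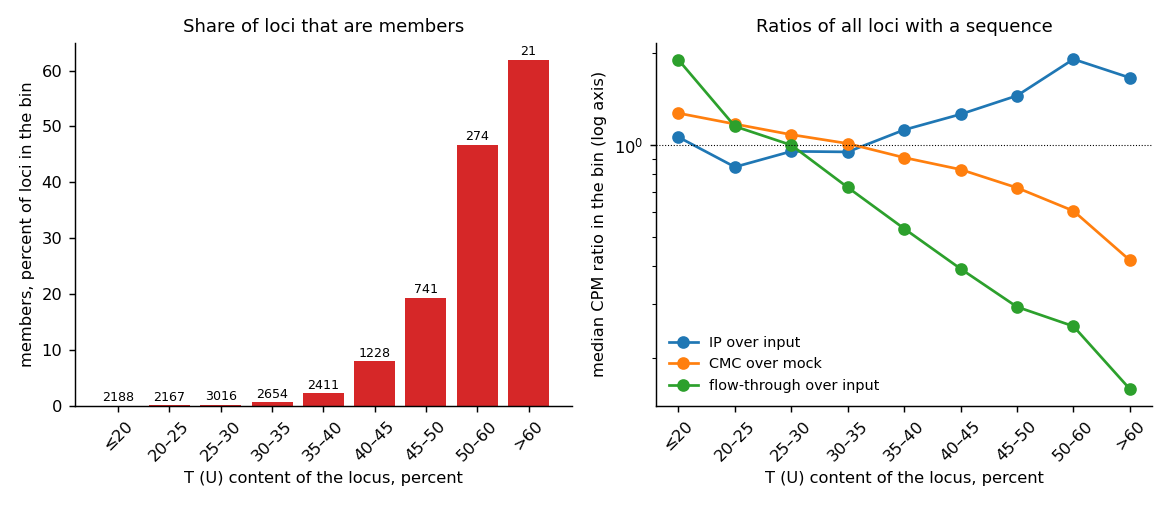
Left, percent of loci that are members by T content of the locus, with the number of loci above each bar; right, median ratio of mean CPM (log axis) over all loci of the bin for the 3 comparisons. Members are 0% of loci at or below 20% T and 61.9% above 60%, while the median of flow-through to input falls from 1.90 to 0.158.

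The excess of T was spread over the molecule and over clusters. At position 1, where piRNAs usually carry U, 95.2% of members and 92.8% of the reference had T. At each of positions 2 to 28, counted from the 5′ end, T was more frequent in members, by 9.84 to 23.8 percentage points. A at position 10, the mark of piRNAs made by the ping-pong cycle, was found in 13.1% of members and 26.6% of the reference, and T there in 51.0% and 29%. The lower share of A was not particular to that position. A was less frequent in members at every position from 1 to 28, with 9.85% and 24.8% at position 9 and 13.6% and 26.2% at position 11. Within a cluster, the median T content of members exceeded that of the cluster's other loci in 25 of 25 clusters with at least 5 sequenced members, by 5.94 to 29.6 points. In Gm30132, the 43 members had a median of 51.6% T and the other loci 28%. The 59 members in Gm21269 had 50%, against 30%.

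Sequence motifs were searched on the strand of the small RNA only. TNTAA, a form of the motif of the synthase PUS7, was in 16.4% of members, 11.3% of the reference and 21.2% of loci down with CMC alone. TNTAG was in 13.6%, 14.5% and 18.6%. GTTCNANNC, the T-loop motif of TRUB1 substrates, was in 2 members (0.438%) and 0.374% of the reference. A run of TTTT, which was looked at after the values were seen, was in 57.1% of members, 13.3% of the reference and 45.8% of loci down with CMC alone. T content differed between the compared loci, and its part in these shares was not tested.

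Members were longer than the reference. Loci of 29 to 31 nt, the length of piRNAs bound by MIWI, made up 75.7% of members (2498) and 61.1% of the 107997 loci. Those of 24 to 28 nt, which include the lengths bound by MILI, made up 13.9% and 31.2%, and those of 32 to 33 nt 10.4% and 6.31%. The share of loci that were members was 0.477% at 23 nt, 1.93% at 28 nt, 3.17% at 29 nt and 5.29% at 33 nt. Loci that were up in Ψ-IP alone had 62.1% at 29 to 31 nt and those down with CMC alone 67.6%. Flow-through over input had a median between 0.390 and 0.467 in members of every length from 26 to 33 nt, and between 0.792 and 0.927 at 23, 24 and 25 nt, where there were 3, 12 and 37 members.

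**Figure D5:**
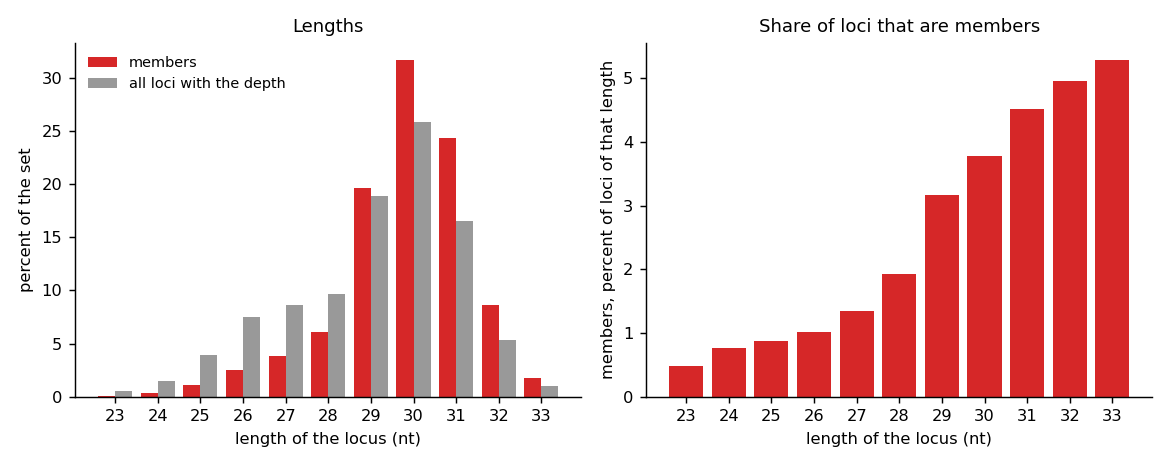
Left, percent of members and of the 107997 loci at each length in nt; right, percent of the loci of each length that are members. Members peak at 30 nt with 31.7%, and the share that are members is 5.29% at 33 nt.

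Flow-through varied among both the longest and the shortest members with a mean of at least 10 CPM over all 15 libraries. The 3 shortest, of 26 and 27 nt, reached that level only through mock and CMC, so their Ψ-IP-set values are low. The 33-nt member on chr6 at 127832090-127832122 had 94.1 CPM ± 32.3 in input, 304 ± 66.0 in Ψ-IP and 17.8 ± 1.63 in flow-through (SD, n = 3). The 26-nt member on chr11 at 103434798-103434823 had 2.03 ± 0.540, 5.03 ± 1.17 and 4.54 ± 1.03. Flow-through was lower than input at the first (log2 fold change -2.60 ± 0.22, adjusted p = 7.09e-09), and the second was not called (0.96 ± 0.31, adjusted p = 0.02). The other 2 of the longest, in 4930444F02Rik (33 nt) and Cyp19a1 (32 nt), had ratios of 1.06 and 1.14 and were not called (adjusted p = 0.806 and 0.983). The 4930444F02Rik member reached 10 CPM only through Ψ-IP, with a mean of 31.4 CPM there and 2.16 to 11.3 in the other groups. Of the other 2 shortest, the 27-nt member on chr9 at 67694810-67694836 was called lower, with a ratio of 0.259 (-2.15 ± 0.39, adjusted p = 0.000164), and the 26-nt member on chr5 at 113329824-113329849 was not, with 1.40 (adjusted p = 0.589).

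Most members, 2742 (83.0%), lay outside repeats, as did 86.2% of the 107997 loci. Among repeats, LINEs held 289 members (8.75% of members; LINEs hold 3.58% of the 107997 loci). Of all LINE loci 7.48% were members, of LTR loci 2.57% (198), of SINE loci 1.94% (47) and of DNA transposon loci 2.87% (26). Almost all LINE members, 268, were L1. The LINE share was also high among loci down with CMC alone (7.28%) and not among those up in Ψ-IP alone (3.50%). Median flow-through to input was 0.326 over L1 members and 0.598 over L1 loci of the reference.

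Just 3 clusters held 141 of the 268 L1 members (52.6%), and 41.4% of the 3069 L1 loci. Members were 56 of the L1 loci in a chr18 cluster (11.9%), 52 in a chr9 cluster (7.87%, below the 8.73% of all L1 loci) and 33 in a short chr7 cluster (23.7%). The 268 hold 185 distinct 5′ ends, so many are length variants of 1 piRNA. Among LTR families, ERVK had 78 members (3.46% of its loci), ERVL-MaLR 65 (2.22%) and ERV1 41 (3.31%). The most abundant LTR member, in an ORR1D1 element on chr2 at 92587254-92587283, had 10.9 CPM ± 1.18 in input, 32.2 ± 7.78 in Ψ-IP and 8.41 ± 0.301 in flow-through. Its flow-through was not called different from input (log2 fold change -0.58 ± 0.22, adjusted p = 0.0516). A member in a MER2 DNA transposon on chr12 at 98438748-98438777, antisense within the potassium channel gene Kcnk10, had 11.3 ± 2.48, 40.6 ± 4.71 and 2.60 ± 1.05 CPM (log2 fold change of flow-through to input -2.34 ± 0.29, adjusted p = 1.37e-06). Its levels in the other set, which the rule also used, were low, with 0.363 CPM in mock and 0.156 with CMC. It was not called lower with CMC (edgeR adjusted p = 0.0616).

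Members lay in 119 of the 257 piRNA clusters that hold any of the 107997 loci. The 10 clusters with most members held 52.1% of members and 50.8% of the 107997 loci. The chr18 cluster had the most, 263 (5.04% of its loci), between 67033482 and 67067902. Next were a chr9 cluster with 228 (3.44%), between 67691916 and 67757205, and a chr12 cluster with 193 (3.86%), between 98387517 and 98447529. The share ranged from 1.57% to 13.5% over the 33 clusters with at least 20 members. The lowest was in a chr17 cluster with 158 members of 10062 loci, and the highest in the chr7 cluster with 60 of 445, between 52908184 and 52912301. In the chr8 cluster of Gm30132, 43 of 401 loci (10.7%) were members.

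Relative to input, flow-through was lower in members than in the other loci of each large cluster, in places by little. In 33 of 33 clusters with at least 20 members, the members' median ratio, 0.243 to 0.897, was below that of the cluster's other loci, 0.538 to 1.22. The compared loci were not matched for T content, and its part in the difference was not tested. At like T content, members with a sequence mostly had the higher ratio, as given above. The smallest gap was in a chr4 cluster of 48 members, with 0.897 and 0.910. In clusters with 5 to 19 members the members' median was lower in 30 and higher in 7 of 37, and in those with 1 to 4 members it was lower in 33 and higher in 10 of 49, the other 6 having no median for other loci. In the chr18 cluster the medians were 0.382 and 0.804. The most abundant member there, in an L1MC element at 67037378-67037407, held 13.6, 19.8 and 12.1 CPM in input, 18.8, 42.8 and 16.0 in Ψ-IP and 1.21, 0.162 and 0.559 in flow-through. Its Ψ-IP libraries overlapped the input libraries, and flow-through lay below both. In the cluster around Cyp19a1, the gene of aromatase, 101 members had a median of 0.657 and the other loci 0.911.

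The share of members on the main strand of their cluster was near that of all the loci judged. On the strand that held most counts of the cluster lay 85.3% of members and 83.5% of the 107997 loci, and 56.8% and 53.3% were on the minus strand. In the chr2 cluster between 92542100 and 92606087, all 191 members were on plus, and in the chr4 cluster between 94281952 and 94331544 all 188 were on minus, within the noncoding gene Gm12648. The strands of the other loci in these 2 clusters are not given here, so these counts do not set members apart. In 2 of the 33 clusters with at least 20 members, most members lay on the strand with fewer counts. These were the chr17 cluster of 10062 loci, with 98 of 158 members (62.0%) and 46.1% of the other loci on minus, and a chr7 cluster between 69883672 and 69932556, with 37 of 62 (59.7%) and 34.1%. The most abundant member of the former, on chr17 at 27310320-27310348 in Gm49793, had 293 CPM in mock and 142 with CMC, and 6.43 CPM ± 1.05 in input, 13.4 ± 3.37 in Ψ-IP and 1.34 ± 0.41 in flow-through. Relative to genes, 66.2% of members were intergenic, 20.2% in a gene but not wholly within an exon, and 13.6% within an exon, beside 66.2%, 20.4% and 13.4% of the 107997 loci.

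Members were not independent observations. The 3302 had 2411 distinct 5′ ends, and 1465 shared theirs with another member. Overlapping members on 1 strand formed 1569 runs, of which 938 held a single member. The longest list, 20 members with 8 different 5′ ends, covered 71 nt on chr5 at 113355299-113355369. At 6 members the same interval was listed under 2 repeat labels.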

How the data were processed

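Small RNAs were counted in 15 mouse testis libraries. The authors clipped adaptors, set aside tRNA fragments, mapped the rest to mm10 with Bowtie 2 and intersected the alignments with repeats and piRNA clusters with BEDTools. They deposited raw counts of reads per interval and strand, with reads in structural RNAs left out; how reads with several alignments were counted is not given in the sources used here. Deposited starts count from 0 and are printed from 1. Cluster intervals were taken from the study's lists.

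CPM used each library's total, from 11575705 to 58399368. Loci with more than 20 counts in the 9 Ψ-IP-set or 6 CMC-set libraries were fitted with edgeR 4.0.16 (TMM, quasi-likelihood F-test, no replicate block, Benjamini-Hochberg adjustment, threshold 0.01; R 4.3.3), after a test on simulated data. DESeq2 1.42.0, other size factors and filters, the replicate block and leaving out each library were alternatives. In each comparison at least 1 of the 3 same-numbered pairs had a correlation of deviations of at most 0.1 (Ψ-IP against input: 0.267, 0.329 and -0.0238), so numbers were not taken to pair samples. Sequences came from GENCODE M21 transcripts and RefSeq promoter windows on GRCm38.

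The members and lists were chosen with earlier results of these data known. Loci named are the 12 most abundant members, the most abundant of the 10 largest clusters and of each repeat class, the 5 highest and 5 lowest in flow-through to input and the 3 longest and 3 shortest with at least 10 CPM, those next to each threshold, and abundant members with a sequence; some are given only by range.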

Additional observations from a re-analysis of the deposited data

How the results depend on the processing

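The number of members depended on the rule: 3302 loci became 6804 with a minimum of 30 counts, 1684 with 120, 358 with folds of 2 and 0.5, and 3712 with TMM-scaled CPM; leaving out 1 library gave 2971 to 4503. The shares of members 29 to 31 nt long, outside repeats, in LINEs and in the largest cluster, the mean T content and the median of flow-through to input (0.290 to 0.503 under other rules; 0.363 to 0.480 without 1 library) moved by less than 1.5 times. TMM scaling in place of library totals moved log2 ratios by -0.18 for Ψ-IP to input, -0.17 for flow-through to input and -0.07 for CMC to mock. Mean T content and the median without 1 library were added after the data were seen.

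Members called higher in Ψ-IP than input went from 1555 to 1028 by DESeq2's Wald test and 775 with no filter on low counts. They ranged from 816 (without input replicate 3) to 1705 on leaving out 1 library, with 820 without input replicate 1. Members called lower with CMC numbered 1287, and 616 without mock replicate 2, 708 without CMC replicate 2 and 855 without CMC replicate 3 (highest 1346). Members called higher in flow-through than input numbered 127, 80 with no filter, and 64 to 170 on leaving out 1 library (64 without input replicate 3, 65 without input replicate 1). Those called lower, 1214, ranged from 826 to 1188. Members called higher in Ψ-IP than flow-through, 2509, ranged from 2169 to 2386; those lower, 3, were 1 with no filter, 8 with more than 100 counts and 0 to 4 on leaving out 1 library. The causes were not tested. With 1 library left out, fewer samples enter each fit.

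With the replicate block, the counts were 1482 (higher in Ψ-IP), 1513 (lower with CMC), 127 and 1298 (higher and lower in flow-through) and 2429 and 2 (higher and lower in Ψ-IP than flow-through). Every library correlated best with its own number in none of the 4 comparisons. Loci near 60 counts have about 10 counts a library, which limits single ratios.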
